A study of Rattus norvegicus with 5 samples.

Results

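The mandibular condylar cartilage (MCC) of the rat was compared between its proliferative zone (PZ) and its mature zone (MZ), the pair of neighbouring layers at which cells of the superficial side give way to chondrocytes. Each zone was 1 array, the column of the PZ sample minus the column of the MZ sample, so 2 of the 5 arrays of the series are set against each other over 31042 probe sets, all of those on the array except its 57 control probe sets. The other arrays hold the fibrous zone (FZ) above PZ, the hypertrophic zone (HZ) under MZ, and the middle and deep zones of femoral condylar cartilage (FCC), a hyaline cartilage of the knee. All 5 came from wild type male Sprague-Dawley rats aged 5 weeks. Cells were cut out by laser from 7 µm sections, 30 sections being pooled per group according to the labels (the study's methods give a larger number for FZ), and the RNA was amplified in 2 linear cycles before hybridization to an Affymetrix rat genome array. The labels do not give the number of animals. With 1 array a side nothing could be tested, and differences stand without p-values or replicates. Each value is a log2 value relative to the median of that probe set over the 5 arrays, so it holds differences between arrays and neither a level nor a signal over background. A difference is PZ minus MZ, and a difference of 1 is 2-fold and one of 2 is 4-fold. A gene has the mean of its probe sets. For the 4525 genes with 2 or more, the difference had an SD between probe sets of 0.31 in the median gene and 0.84 at the 90th percentile, and this technical spread is the sole error at hand.

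In the condyle, cells pass from the fibrous surface through the proliferative layer, where the progenitors of the cartilage divide, into the mature layer, where they are chondrocytes, and on into hypertrophy, mineralization and replacement by bone. The surface matrix is fibrous, with type I collagen and small proteoglycans, whereas chondrocytes lay down type II collagen and aggrecan. Hypertrophic chondrocytes make type X collagen and matrix for mineral, and below them lie vessels, marrow, osteoclasts and osteoblasts. In a bulk sample fewer cells of a type and less RNA per cell cannot be told apart.

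Of the 31042 probe sets, 98 (0.316%) lay at least 4-fold higher in PZ than in MZ and 247 (0.796%) at least 4-fold lower. These counts come down to 51 genes higher and 128 genes lower when each named gene has the mean of its probe sets. Among the 98, 78 carry 1 gene symbol and 20 are not listed in the annotation, and among the 247 these numbers are 204 and 36, with 7 that carry several symbols. The extremes were 4.17 and −4.10, and 72.65% of all probe sets differed by no more than 0.5. At the threshold, Tnfaip8l3 (2.04) and Clu (−2.005) were the last genes inside it and Klhl40 (1.99) and Mapk6 (−1.996) the first outside. The step above, FZ against PZ, had 146 probe sets (0.47%) at least 4-fold higher in FZ and 43 (0.139%) lower. The step below, MZ against HZ, had 46 (0.148%) higher in MZ and 3 (0.00966%) lower. PZ to MZ was thus the step with the most 4-fold differences, 345 against 189 and 49, and the sole one of the 3 with more of them lower than higher on the superficial side. FZ against MZ, 2 layers apart, had 192 probe sets (0.619%) higher in FZ and 73 (0.235%) lower.

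The control probe sets of the arrays differed between PZ and MZ too. The 18 hybridization control probe sets, which read foreign transcripts mixed into every hybridization, averaged 0.44 in PZ, against −0.02 in MZ, −0.15 in FZ, −0.03 in HZ and 0.50 in FCC. Their PZ minus MZ differences were 0.08 to 0.74. By transcript it was 0.70 for bioB, 0.58 for bioC, 0.32 for bioD and 0.12 for cre. Shifting the arrays to equal means of these controls lowers every difference by 0.46, so that a difference between 0 and 0.46 turns sign. On that scale 37 probe sets were at least 4-fold higher and 656 lower, a larger share of lower ones than the 98 and 247 as deposited. The Gapdh control probe sets differed between PZ and MZ by −1.46 at the 3′ end of the transcript, −0.85 in its middle and 0.04 at its 5′ end. The 5′ minus 3′ difference of Gapdh was 1.36 in PZ and −0.13 in MZ, and it was −0.07 in FZ, 0.27 in HZ and −0.21 in FCC. The beta-actin controls differed between PZ and MZ by 0.12 at the 3′ end, −0.68 in the middle and 0.36 at the 5′ end. Their 5′ minus 3′ difference was 0.14 in PZ, −0.10 in MZ, 0.14 in FZ, −0.24 in HZ and 1.24 in FCC. In beta-actin FCC, and not PZ, thus stood apart. Over all 14217 named genes PZ was under every other array in 24.8%. The part of these array differences in the results that follow was not tested.

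**Figure D1:**
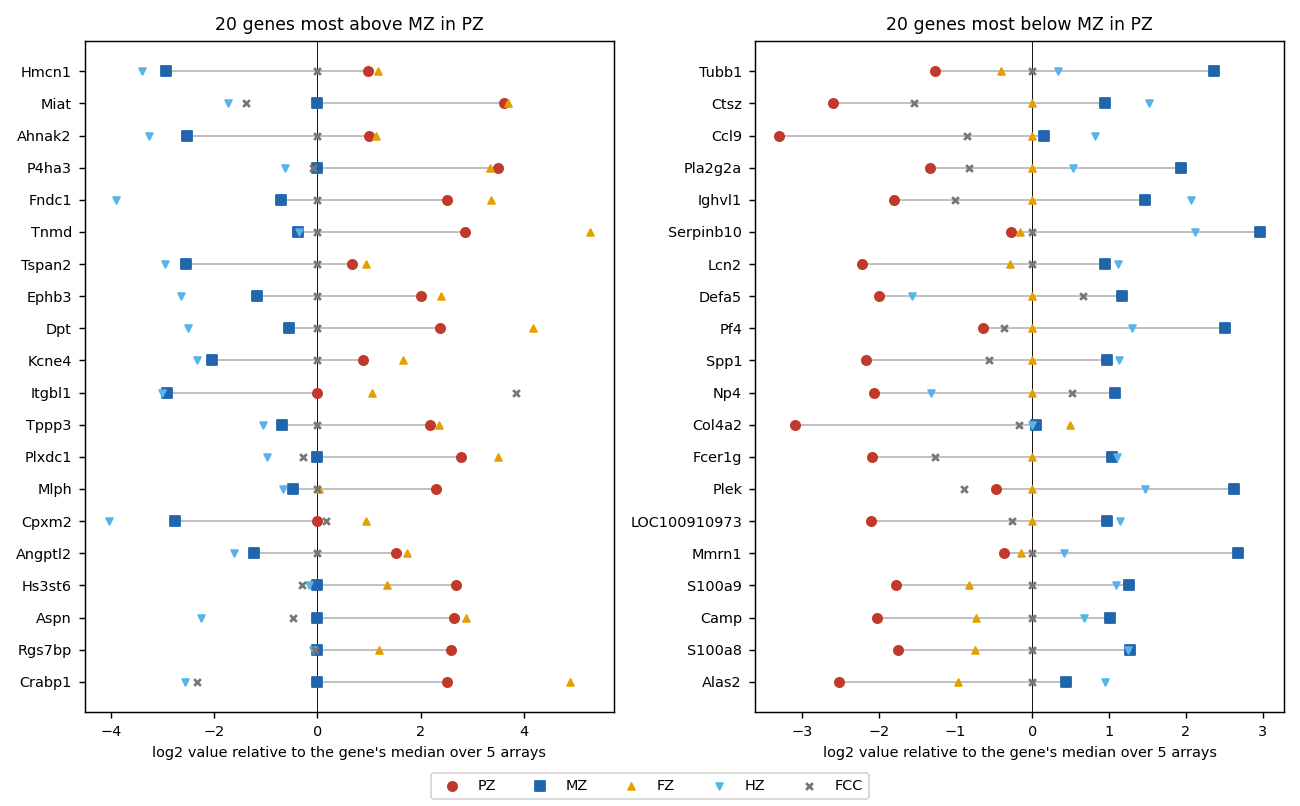
Log2 value, relative to the gene's median over the 5 arrays (x axis), of the 20 genes most above MZ in PZ (left panel) and the 20 most below it (right panel), with 1 marker per array and a grey line joining PZ and MZ. In the left panel Hmcn1 leads with a PZ minus MZ difference of 3.91, and in the right panel Tubb1 with −3.64.

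Fibrous matrix was the group that lay higher in PZ. Of 34 measured genes of tendon and fibrous connective tissue, 13 were at least 2-fold higher in PZ than in MZ and 1 was lower, with a median difference of 0.61. Over all 14217 named genes 1.97% were at least 2-fold higher, 7.67% at least 2-fold lower and the median was 0.00. These shares belong beside every 2-fold count of PZ against MZ in the lists below. Shifted by the hybridization controls, the tendon list had 8 higher and 5 lower. That shift takes 0.46 from every gene, and the share of all named genes past 2-fold after it was not counted. Shifted counts, here and below, therefore show the common shift and no change particular to a list. Tnmd, or tenomodulin, a membrane protein of tendon, lay at 2.86 in PZ and −0.37 in MZ, with 5.29 in FZ, −0.35 in HZ and 0.00 in FCC. Dpt, or dermatopontin, a matrix protein that binds decorin and collagen, lay at 2.38 in PZ and −0.54 in MZ, with 4.17 in FZ, −2.50 in HZ and 0.00 in FCC. For both genes the order FZ, PZ, MZ ran downward, with PZ in the middle. Aspn, or asporin, a small leucine-rich proteoglycan that binds TGF-beta, lay at 2.64 in PZ and 0.00 in MZ, with 2.87 in FZ, −2.25 in HZ and −0.47 in FCC. Fndc1, a protein with fibronectin type III domains, lay at 2.52 in PZ and −0.71 in MZ, and at −3.91 in HZ. Col14a1, a collagen found on the surface of fibrils, differed by 2.27, with its 2 probe sets at 1.22 and 3.32. Mfap5, a microfibril protein, differed by 2.26 and Fibin by 2.28. The chief fibrillar collagens were not 2-fold higher. Col1a1 lay at −1.32 in PZ and 0.07 in MZ, with probe sets at −0.72 and −2.08, and was the 1 gene of the list that was at least 2-fold lower. Col1a2 differed by −0.37 and Col3a1 by 0.54. Scx, the tendon transcription factor, differed by 0.68 and Postn, or periostin, by 0.98.

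Hmcn1, or hemicentin 1, a large extracellular matrix protein, had the largest difference of all named genes. It lay at 0.97 in PZ and −2.94 in MZ, with 1.17 in FZ, −3.40 in HZ and 0.00 in FCC, so PZ was close to FZ and MZ close to HZ. P4ha3, an alpha subunit of the enzyme that hydroxylates proline in collagen, lay at 3.51 in PZ and 0.00 in MZ, with 3.34 in FZ, −0.63 in HZ and −0.08 in FCC. Other enzymes that act on collagen moved less. The lysyl oxidase relatives Loxl1 and Loxl2, which crosslink collagen, differed by 1.24 and 1.12, whereas Lox differed by −0.20 and P4ha1 by −0.41. Ppib and Fkbp10, which help collagen to fold, differed by −1.12 and −1.05. In all, 4 of 27 genes of collagen processing were at least 2-fold higher and 3 lower, against 1 and 7 after the shift by the hybridization controls. Hs3st6, which adds a 3-O-sulfate to heparan sulfate, lay at 2.68 in PZ and 0.00 in MZ, and at 1.34 in FZ. It was the extreme of a list of 33 genes of glycosaminoglycan synthesis in which 2 were at least 2-fold higher, 2 lower (1 and 9 after that shift), and the median was −0.14. Among 13 small leucine-rich proteoglycans 4 were at least 2-fold higher, namely Aspn, Ecm2 (1.58), Prelp (1.17) and Fmod (1.12), and 1 was lower, Omd (−1.25), while Dcn, or decorin, differed by −0.85 and Bgn, or biglycan, by −0.22. After the shift 2 of the 13 were higher and 4 lower. These lists overlap, so some genes are counted more than once. The tendon list shares 4 genes with collagen processing, P4ha3 and Loxl2 among them. It shares 5 with the small proteoglycans, Aspn and Fmod among them, and Prelp is also in the hyaline matrix list below.

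The rest of the 20 genes with the largest positive difference had mixed roles. Ephb3, a receptor tyrosine kinase for ephrin-B ligands, lay at 2.01 in PZ and −1.17 in MZ, with 2.39 in FZ, −2.64 in HZ and 0.00 in FCC. Tspan2, a tetraspanin, lay at 0.67 in PZ and −2.55 in MZ, and its 2 probe sets differed by 3.04 and 3.39. Kcne4, a regulatory subunit of potassium channels, differed by 2.92, Plxdc1, a transmembrane protein with a plexin domain, by 2.78 and Itgbl1, a secreted protein related to integrin beta subunits, by 2.91. Itgbl1 was highest in FCC, at 3.84, and lay at 0.00 in PZ, −2.91 in MZ and −3.00 in HZ. Rgs7bp, which anchors regulators of G protein signalling at the membrane, lay at 2.58 in PZ, 0.00 in MZ and 1.19 in FZ. Tppp3, a relative of a tubulin-polymerizing protein that marks progenitors of the tendon sheath in mouse, lay at 2.18 in PZ and −0.68 in MZ, with 2.36 in FZ and −1.05 in HZ. Angptl2, a secreted angiopoietin-like protein, differed by 2.75 and Cpxm2, a carboxypeptidase relative, by 2.76. Miat, a long non-coding RNA, lay at 3.62 in PZ and 0.00 in MZ, with 3.70 in FZ and −1.74 in HZ. Ahnak2 differed by 3.52. Mlph, or melanophilin, which links vesicles to myosin, was the exception in this set. It lay at 2.30 in PZ, against −0.46 in MZ, 0.03 in FZ, −0.66 in HZ and 0.00 in FCC, and was the 1 named gene that was at least 4-fold higher in PZ than in MZ while FZ lay within 0.5 of MZ.

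FZ lay on the side of PZ in most of the higher probe sets and in fewer of the lower ones. Of the 98 higher ones, FZ lay at least 2-fold above MZ in 89, within 0.5 of PZ in 45 and within 0.5 of MZ in 3. Of the 247 lower ones, FZ lay at least 2-fold under MZ in 117 and within 0.5 of MZ in 87. PZ was at least 4-fold under every other array in 39 of the 247, and at least 4-fold above every other in 2 of the 98. These counts reuse the PZ or MZ array by which the probe sets were picked, so they are in part set by that choice. Of all probe sets, 0.619% were at least 4-fold higher in FZ than in MZ and 0.235% lower. FZ against HZ shares no array with PZ against MZ. In it all 98 higher probe sets lay higher in FZ, 91 of them by at least 2-fold and 80 by at least 4-fold, where 3.07% of all probe sets were at least 2-fold higher. Of the 247 lower ones 205 lay lower in FZ, 108 of them by at least 2-fold and 25 by at least 4-fold, where 3.19% of all probe sets were at least 2-fold lower. Probe sets at least 2-fold different the other way numbered 0 of the 98 and 2 of the 247.

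**Figure D2:**
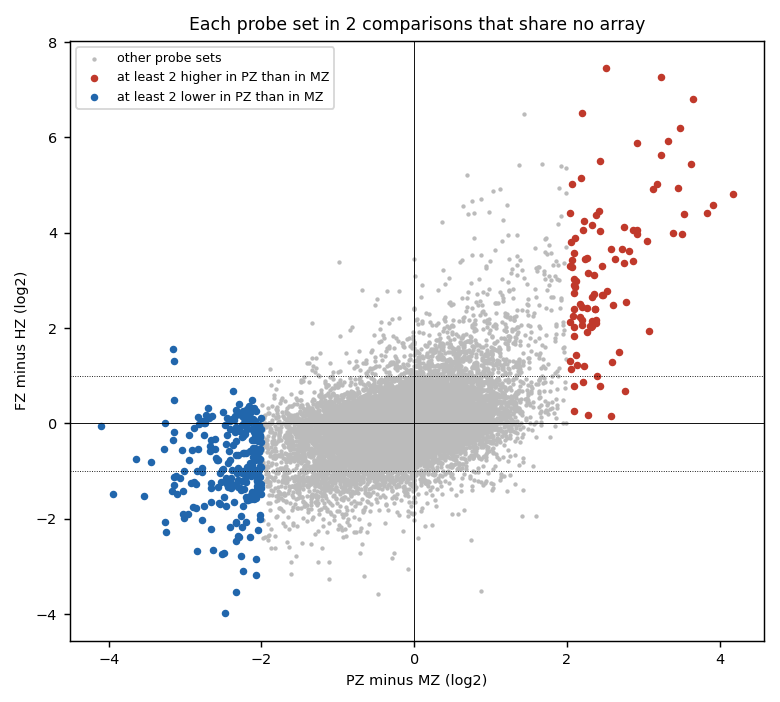
PZ minus MZ (x axis, log2) against FZ minus HZ (y axis, log2) for 31042 probe sets, with those at least 4-fold higher in PZ in red and those at least 4-fold lower in blue. Of the 98 red points 91 lie above the dotted line at 1, and of the 247 blue points 108 lie under the line at −1.

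Genes of blood and marrow cells led the lower side. Of the 128 genes at least 4-fold lower in PZ, 21 were in the 6 lists of blood and marrow cells, which hold 105 measured genes. That is 20% of the 105, where 128 of all 14217 named genes were as low. These lists held 0 of the 51 higher genes. With 51 of 14217 genes higher, 0 of 105 is near the share over all genes. The list of megakaryocytes and platelets had 10 of 16 genes at least 2-fold lower, 0 higher and a median of −1.65. Tubb1, the beta-tubulin of platelets, had the lowest difference of all named genes, with −1.27 in PZ and 2.37 in MZ, and with −0.41 in FZ, 0.33 in HZ and 0.00 in FCC. Pf4, or platelet factor 4, lay at −0.64 in PZ and 2.51 in MZ, with 0.00 in FZ, 1.30 in HZ and −0.37 in FCC. Mmrn1, the platelet protein multimerin 1, lay at −0.37 in PZ and 2.67 in MZ, with −0.15 in FZ, 0.41 in HZ and 0.00 in FCC. Plek, or pleckstrin, a substrate of protein kinase C in platelets, differed by −3.11. MZ lay above HZ as well in 14 of the 16. The defining members were split, Pf4 at −3.15 and Itga2b at −1.15 against Gp9 at −0.57 and Ppbp at −0.02.

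Erythroid genes were lower as well, 14 of 25 by at least 2-fold with a median of −1.22, but lay higher in HZ than in MZ in 25 of 25. Alas2, which starts the making of haem in red cell precursors, lay at −2.52 in PZ and 0.44 in MZ, with −0.97 in FZ, 0.94 in HZ and 0.00 in FCC. Car1, carbonic anhydrase 1 of red cells, lay at −0.75 in PZ and 1.73 in MZ, with −0.86 in FZ and 3.13 in HZ. Klf1, a transcription factor of red cells, lay at −0.62 in PZ and 1.45 in MZ, with −0.52 in FZ and 2.65 in HZ. Slc4a1, the anion exchanger band 3, differed by −1.35 and Gata1, the transcription factor of both lineages, by −1.05. In FZ 11 of the 14 were at least 2-fold lower than in MZ as well, though both differences use the MZ array. FZ lay above PZ in 11 of the 25, by at least 2-fold in 2, with Alas2 (1.55) among them. Genes of white cells followed. Of 17 pan-leukocyte genes 13 were at least 2-fold lower, 0 higher, and the median was −1.47. Cd53, a tetraspanin of white cells, lay at −1.20 in PZ and 1.38 in MZ, and Fcer1g, a signalling chain of Fc receptors, at −2.09 and 1.03. Ptprc, or CD45, differed by −1.01, with probe sets at 0.04 and −2.06. Neutrophil genes were at least 2-fold lower in 7 of 13, with a median of −1.11, while 3 of the 13 lay above 0, up to 0.44 in Cxcr2. S100a8 and S100a9, the calcium-binding proteins of neutrophils, differed by −3.02 and −3.03, Lcn2, which binds bacterial siderophores, by −3.17 and Camp, an antimicrobial peptide precursor, by −3.03. The defensins Defa5 and Np4 differed by −3.16 and −3.14. These are close copies whose probe sets may share transcripts, and they lay at −1.57 and −1.32 in HZ, well under their 1.17 and 1.08 in MZ. Macrophage genes were at least 2-fold lower in 7 of 18 (median −0.84), among them the receptor Csf1r (−1.93) and Cd68 (−1.53). The other defining members, Adgre1 and Cd163, differed by −0.93 and −0.46, and 3 of the 18 lay above 0. Lymphocyte genes were at least 2-fold lower in 5 of 18 (median −0.42), among them Cd3g (−1.91) and Ms4a1 (−1.53) but neither Cd3e (0.04) nor Cd79b (−0.22).

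Short stretches of promoter are shown for 3 of the erythroid and platelet genes, because the factor Gata1 is known to act on genes of both lineages. Genes and motif were picked once the values were known. The motif searched was TGATAA or AGATAA on either strand, which a script marked in capitals in the 300 bases from 250 before to 50 after the start of the gene in RefSeq (GRCr8). It was present in 8 of the 16 members of these lists that were at least 2-fold lower in PZ and had a promoter in the RefSeq table, in 4 of 13 other members and in 18.6% of all 27456 promoters of that length. The sequences are those of the 3 genes with the lowest differences among the 8, Mmrn1 on the plus strand of chr4:91233166-91233465, Alas2 on the plus strand of chrX:22895200-22895499 and Rgs18, which regulates G protein signalling in platelets, on the minus strand of chr13:59066293-59066592. Each is written 5′ to 3′ along its gene.
Mmrn1: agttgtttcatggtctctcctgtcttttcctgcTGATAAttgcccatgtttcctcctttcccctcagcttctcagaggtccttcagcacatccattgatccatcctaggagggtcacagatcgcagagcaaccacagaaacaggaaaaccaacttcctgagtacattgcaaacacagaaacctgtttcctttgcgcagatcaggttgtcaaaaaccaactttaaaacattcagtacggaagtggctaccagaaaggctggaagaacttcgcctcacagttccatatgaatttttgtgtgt
Alas2: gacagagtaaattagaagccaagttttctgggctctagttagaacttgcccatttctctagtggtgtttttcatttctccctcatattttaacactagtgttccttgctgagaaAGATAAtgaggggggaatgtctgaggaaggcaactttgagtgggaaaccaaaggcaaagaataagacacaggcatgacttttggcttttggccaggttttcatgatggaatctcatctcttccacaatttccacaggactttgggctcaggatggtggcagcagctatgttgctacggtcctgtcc
Rgs18: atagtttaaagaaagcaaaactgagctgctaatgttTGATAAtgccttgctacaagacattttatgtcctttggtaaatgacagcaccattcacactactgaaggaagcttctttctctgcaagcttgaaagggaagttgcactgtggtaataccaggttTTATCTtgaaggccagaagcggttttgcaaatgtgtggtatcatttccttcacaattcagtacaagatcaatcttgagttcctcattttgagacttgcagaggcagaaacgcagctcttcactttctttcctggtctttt
The first match lies 217 bases before the start in Mmrn1, 136 in Alas2 and 214 in Rgs18, which has 2. Rgs18 lay at −0.46 in PZ and 1.97 in MZ, with 0.00 in FZ, 0.82 in HZ and −0.73 in FCC, so it peaked in MZ as Mmrn1 did, whereas Alas2 peaked in HZ. A match in these letters is no evidence that a factor binds there.

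Some of the 20 lowest genes belong to no one of these lists. Ctsz, the lysosomal protease cathepsin Z, lay at −2.59 in PZ and 0.95 in MZ, with 0.00 in FZ, 1.52 in HZ and −1.54 in FCC. Pla2g2a, a secreted phospholipase, differed by −3.28, Serpinb10, a serine protease inhibitor, by −3.25, and Ighvl1, named as an immunoglobulin heavy chain gene, by −3.26. MZ stood above HZ in Pla2g2a and Serpinb10, and under it in Ctsz and Ighvl1.

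Vessel and bone genes lay lower in PZ too. Of 20 endothelial genes 10 were at least 2-fold lower and 0 higher, with a median of −0.92. Emcn, or endomucin, lay at −0.55 in PZ and 0.92 in MZ, Cldn5, a junction protein of endothelium, at −0.40 and 1.38, and the receptor Tek at 0.00 and 1.05. The defining genes Pecam1 and Kdr differed by −0.66 and −0.19. Ramp2, a partner of the adrenomedullin receptor, had the lowest difference of the list, −2.73, but it lay at 0.17 in FZ, near its 0.29 in MZ. Of 10 osteoclast genes 3 were at least 2-fold lower, among them Acp5 (−1.75), the tartrate-resistant acid phosphatase, and Mmp9 (−1.60), while Ctsk, or cathepsin K, differed by −0.69. Of 11 genes of osteoblasts and osteocytes 6 were at least 2-fold lower, with a median of −1.22. Genes that mark the mature bone cell were spread widely, with Mepe at −1.95, Bglap, or osteocalcin, at −0.71, Dmp1 at −0.35 and Sost at 0.19. Skeletal muscle (3 of 18 lower, median −0.11), adipocyte (2 of 9 lower, median −0.30), smooth muscle and pericyte (1 of 14 higher and 0 lower, or 0 and 2 after the shift by the hybridization controls, median 0.05) and Schwann cell genes (0 of 8 either way, median 0.27) had no more than a few members past 2-fold.

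Chondrocyte hypertrophy, the programme that ends in mineralization, had its genes lower in PZ than in MZ. Of 22 genes 7 were at least 2-fold lower in PZ, 0 were higher and 20 had a difference under 0, with a median of −0.54. After the shift by the hybridization controls 0 were higher and 11 lower. A median of this size was not particular to the list, since oxidative phosphorylation and the proteasome, described below, had −0.73 and −0.52. Col10a1, the collagen of hypertrophic chondrocytes, lay at −1.61 in PZ and 0.62 in MZ, with −2.73 in FZ, 0.37 in HZ and 0.00 in FCC, so MZ stood slightly above HZ. Ihh, or Indian hedgehog, the signal of prehypertrophic chondrocytes, lay at −0.45 in PZ and 1.23 in MZ, with −1.22 in FZ, 0.00 in HZ and 1.81 in FCC, and among the MCC zones it was highest in MZ. Spp1, or osteopontin, lay at −2.17 in PZ and 0.97 in MZ, with 0.00 in FZ, 1.13 in HZ and −0.57 in FCC. Alpl, the alkaline phosphatase of mineralizing matrix, lay at −0.50 in PZ and 1.47 in MZ, with 0.81 in HZ. Panx3, a channel protein of these cells, and Mepe, a matrix phosphoglycoprotein, differed by −2.05 and −1.95. Mmp13, the collagenase of the last hypertrophic cells, and Ibsp, or bone sialoprotein, differed by −0.60 and −0.42. Of the 6 genes that this list shares with the bone cell list, Spp1, Alpl and Mepe were at least 2-fold lower.

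Of 25 measured matrix genes of hyaline cartilage, 3 were at least 2-fold higher in PZ and 4 lower, with a median of −0.26. Shifted by the hybridization controls, 1 was higher and 8 were lower. FZ against MZ had 2 higher and 13 lower with a median of −1.31, where 2.58% of all named genes were at least 2-fold higher and 2.75% lower. Col2a1, the main collagen of cartilage, lay at 0.00 in PZ and 0.49 in MZ, and at −2.49 in FZ, and its 3 probe sets differed between PZ and MZ by −0.48 to −0.50. Col9a1, a collagen on the surface of type II fibrils, lay at 0.00 in PZ and 0.66 in MZ, and at −4.53 in FZ. Acan, or aggrecan, differed by 0.44 and Comp, a matrix protein that binds collagen, by −0.29. In Col2a1, Col9a1 and Comp, which lay at −2.33 in FZ, PZ was nearer to MZ than FZ was. Cnmd, or chondromodulin, which inhibits the growth of vessels, lay at −0.25 in PZ and 2.08 in MZ, with −2.06 in FZ, 0.00 in HZ and 5.46 in FCC. Snorc, a transmembrane proteoglycan of chondrocytes, lay at 0.00 in PZ and 1.81 in MZ, with −2.34 in FZ and 5.13 in FCC, and Mia, a small secreted protein of chondrocytes, at 0.00 and 1.24. Higher in PZ were Cilp2 (1.71), Prelp (1.17) and Hapln1 (1.08), the link protein of aggrecan, with probe sets of 0.34 to 1.58. The chondrocyte transcription factors showed 3 of 22 genes higher, namely Sox6 (1.22), Trps1 (1.09) and Nfatc2 (1.06), 0 lower, and a median of 0.13. Shifted by the hybridization controls, that list had 0 higher and 3 lower.

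**Figure D3:**
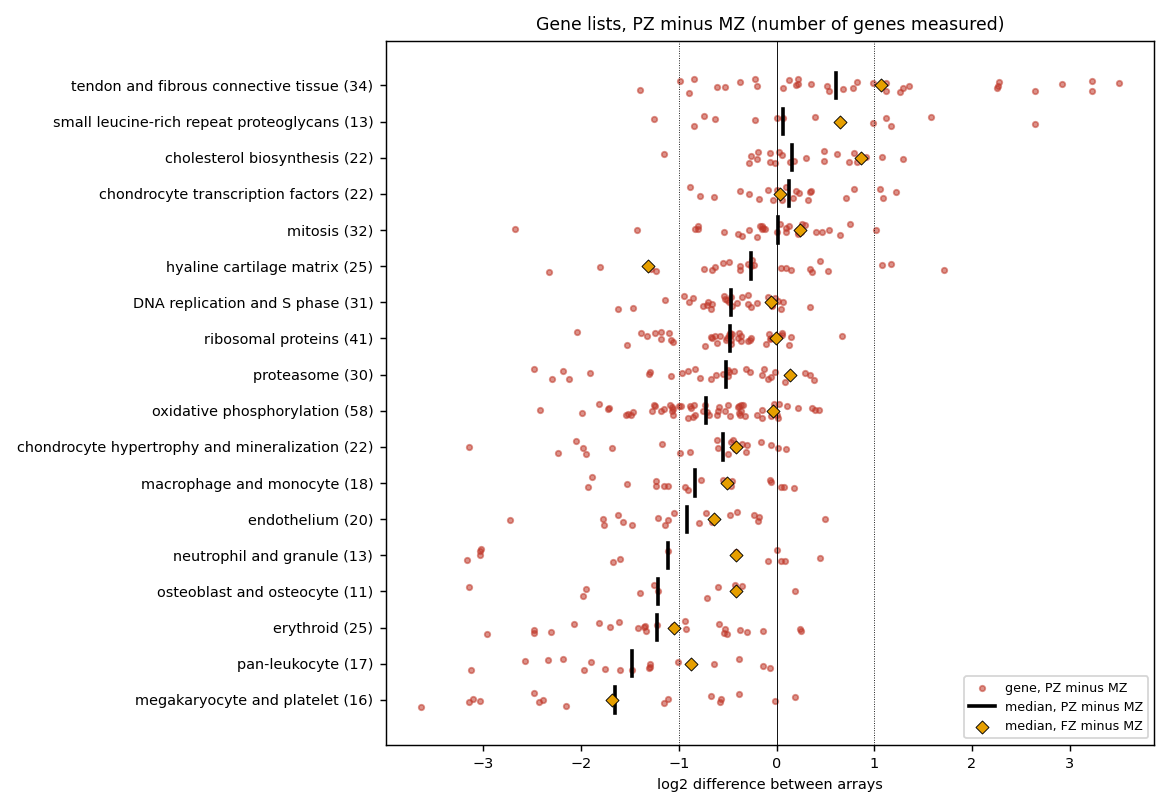
PZ minus MZ (x axis, log2) of every measured gene of 18 lists (red points), their median (black bar) and the median of FZ minus MZ for the same genes (orange diamond), with dotted lines at 2-fold. Megakaryocyte and platelet genes have a median of −1.65 for PZ and −1.68 for FZ, whereas oxidative phosphorylation has −0.73 for PZ and −0.03 for FZ.

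A second set of genes was lower in PZ while FZ stayed near MZ. These are the genes of respiration, protein synthesis and protein turnover, which nearly every cell uses. The trait was not theirs alone. Of the 6 lower genes of osteoblasts and osteocytes, FZ lay within 0.5 of MZ in 3 and at least 2-fold under MZ in 1. These numbers were 1 and 4 for the 7 lower neutrophil genes, and 2 and 7 for the 13 lower pan-leukocyte genes. Among 58 measured genes of oxidative phosphorylation the median was −0.73, with 19 at least 2-fold lower in PZ than in MZ and 0 higher. In 18 of the 19 FZ lay within 0.5 of MZ, and 0 of the 58 differed by 2-fold between FZ and MZ. Of all named genes 2.58% were at least 2-fold higher in FZ than in MZ and 2.75% lower. Among the 247 probe sets at least 4-fold lower in PZ, FZ lay within 0.5 of MZ in 35.2%. The like share over all genes at least 2-fold lower was not counted, for this list or those below. Cox4i1, a subunit of cytochrome oxidase, lay at −2.42 in PZ and 0.00 in MZ, with 0.03 in FZ, 0.16 in HZ and −0.34 in FCC. Uqcrfs1, the iron-sulfur protein of complex III, lay at −1.78 in PZ and 0.20 in MZ, and Atp5f1a, the alpha subunit of ATP synthase, at −1.47 and 0.24. The list was not uniform, since Uqcrc1, a core subunit of complex III, differed by 0.01 and Ndufv1 by −0.60. Of 30 proteasome genes 8 were at least 2-fold lower (median −0.52), all 8 with FZ within 0.5 of MZ, led by Psmc5 (−2.48) and Psmb7 (−2.30). Psmc5, an ATPase of the regulatory particle, lay at −2.47 in PZ and 0.00 in MZ, with 0.00 in FZ, 0.04 in HZ and −0.58 in FCC. Of 41 ribosomal protein genes 10 were at least 2-fold lower (median −0.47), and in all 10 of them FZ lay within 0.5 of MZ. Rps15a lay at −2.04 in PZ and 0.00 in MZ, with 0.00 in FZ, 0.03 in HZ and 0.04 in FCC, while Rpl28 differed by 0.67. PZ was under each of the other 4 arrays in 37 of the 58, 16 of the 30 and 34 of the 41 genes of these lists, beside the 24.8% over all named genes. Cytosolic chaperones had 4 of 23 genes lower (median −0.43), led by Hsp90ab1 at −2.31, with probe sets at −1.45 and −3.16. The chaperones of the endoplasmic reticulum and its stress response had 4 of 29 lower (median −0.32), among them Atf4 (−1.67) and Manf (−1.48), while Hspa5, the main chaperone of the list, differed by −0.02.

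Other genes were low in PZ in the same way. Of the named genes, 38 were at least 4-fold lower in PZ than in MZ with FZ within 0.5 of MZ. Ccl9, a chemokine, lay at −3.30 in PZ and 0.15 in MZ, with 0.00 in FZ, 0.81 in HZ and −0.86 in FCC. Col4a2, a basement membrane collagen, lay at −3.09 in PZ and 0.05 in MZ, with 0.49 in FZ, 0.00 in HZ and −0.18 in FCC. Pfn1, or profilin 1, which binds actin, lay at −2.56 in PZ and 0.26 in MZ, with 0.14 in FZ, 0.00 in HZ and −1.21 in FCC. Slc4a2, an anion exchanger, and Ifitm3, an antiviral membrane protein, differed by −2.77 and −2.83, and Atp11b, a lipid flippase, and Atp1b3, a subunit of the sodium pump, by −2.70 and −2.60. Genes often used as references were not level across these 2 arrays. Of 9 measured, 4 were at least 2-fold lower in PZ, with a median of −0.83. Gusb (−1.46), B2m (−1.34), Tfrc (−1.22) and Ywhaz (−1.12) were the 4, whereas Tbp differed by 0.03 and Hprt1 by −0.36. The 3′ Gapdh control lay low on the same array, and its bearing on these genes was not tested.

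**Figure D4:**
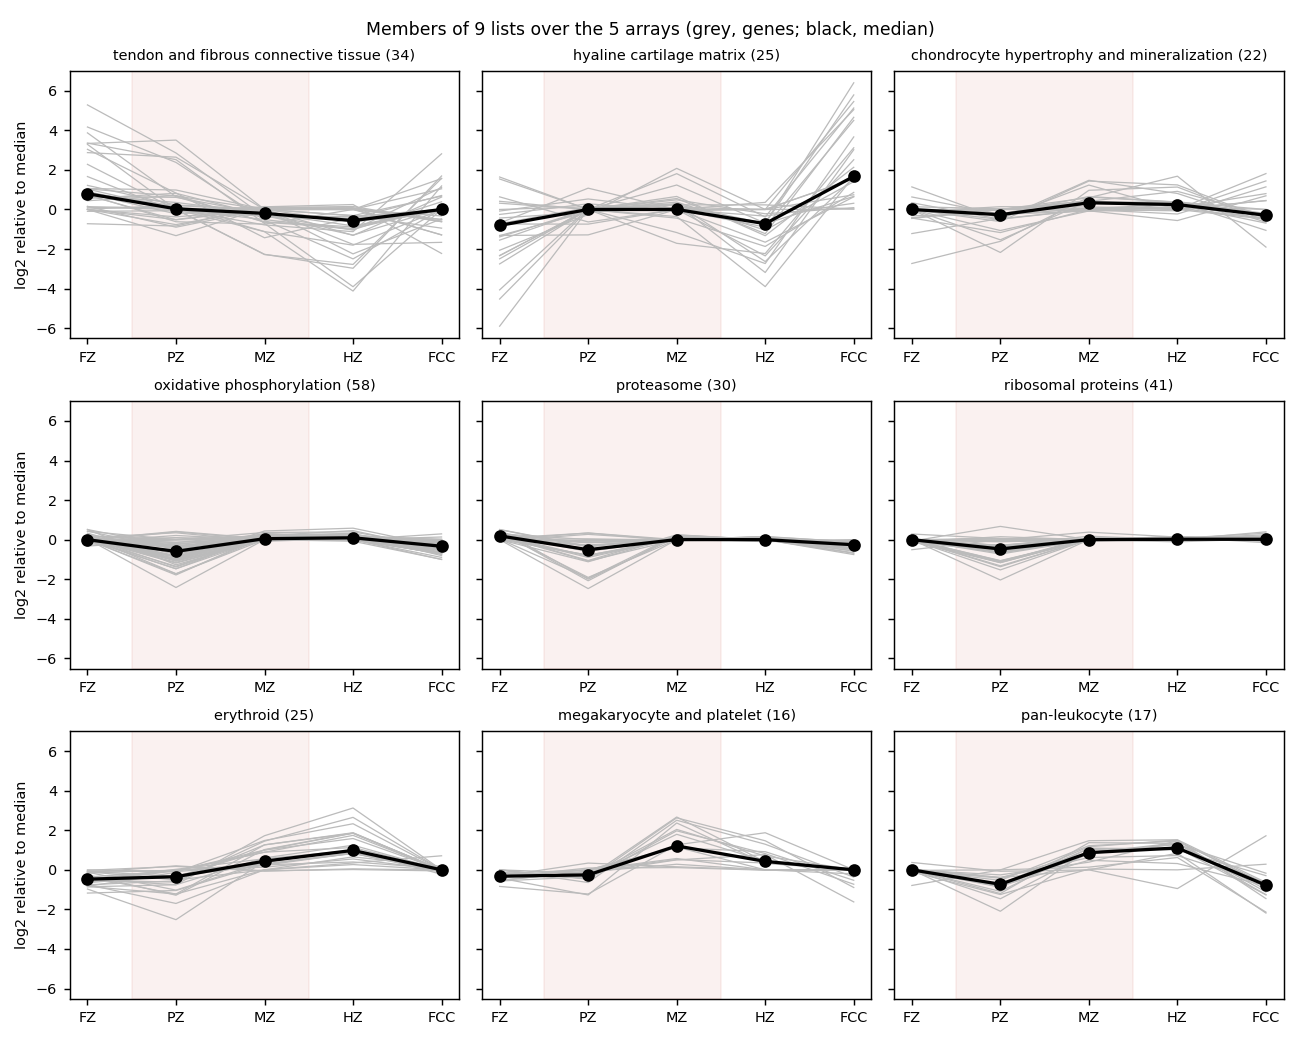
Log2 value relative to the gene's median (y axis) of the measured genes of 9 lists over the 5 arrays (x axis; grey lines, genes; black line, median), with PZ and MZ shaded. The median of oxidative phosphorylation is −0.59 in PZ and 0.05 in MZ against 0.00 in FZ, that of platelet genes is −0.25 in PZ and 1.21 in MZ against −0.32 in FZ.

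Genes of the dividing cell were used to check the label of the proliferative zone, and they did not lie higher there than in MZ. Of 31 genes of DNA replication 3 were at least 2-fold lower in PZ, 0 higher and 27 had a difference under 0, with a median of −0.46. Over all named genes 7.67% were at least 2-fold lower and 1.97% higher. The 2-fold counts of this list and of the mitosis list below are near those shares. After the shift by the hybridization controls 0 of the 31 were higher and 11 lower. Pcna, the sliding clamp of DNA polymerase, lay at −1.03 in PZ and 0.11 in MZ, with 0.00 in FZ, 0.42 in HZ and −0.67 in FCC. Mcm6 and Rfc4, which act at the replication fork, differed by −1.47 and −1.62, Mcm5 by −0.95 and Mcm2 by −0.05. The median of the list was −0.33 in PZ and 0.05 in MZ, and it was 0.00 in FZ, 0.50 in HZ and −0.70 in FCC, so among the MCC zones HZ stood highest and PZ lowest. Of 32 genes of mitosis 1 was at least 2-fold higher, Bub1b (1.01), and 2 were lower, Cdc25b (−2.67) and Cenpe (−1.43), with a median of 0.02. After the shift by the hybridization controls 0 of the 32 were higher and 5 lower. Mki67, the marker Ki-67, lay at 0.00 in both zones, and at 0.00 in FZ, 0.51 in HZ and −1.14 in FCC. Top2a differed by −0.80, Cdk1 by −0.14 and Ccnb1 by 0.10. The median of the mitosis list was −0.02 in PZ and 0.00 in MZ, against −1.12 in FCC. The G1 and cell cycle exit genes had 1 of 20 higher, Gadd45g (1.77), which is induced by growth arrest and stress, and 2 lower, Cdk4 (−1.81) and Btg1 (−1.15). Marrow cells divide too, and the marrow genes described above moved with the same pair of arrays. How far they set the levels in MZ was not tested.

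Bone morphogenetic proteins (BMPs) act through receptor kinases and Smad proteins. Single genes of this pathway were lower in PZ than in MZ, while the list of TGF-beta and BMP genes had a median near 0. The ligands Bmp3 and Bmp4 differed by −2.40 and −1.98 and Bmp2 by −0.73. Bmp4 lay at −1.18 in PZ and 0.80 in MZ, with 0.00 in FZ, 0.86 in HZ and −0.78 in FCC. Among the inhibitors Grem1 differed by −2.22, while Nog differed by −0.14. The target Id3 differed by −1.40 and the decoy receptor Bambi by −1.27. TGF-beta ligands themselves did not differ by 2-fold, with Tgfb1 at −0.11, Tgfb2 at −0.02 and Tgfb3 at −0.24, but the proteins that hold latent TGF-beta in the matrix, Ltbp4 (1.89) and Ltbp2 (1.18), and the induced matrix protein Tgfbi (1.24) were higher in PZ. Over the list of 45 genes 3 were at least 2-fold higher and 7 lower, with a median of −0.06, and 1 and 10 after the shift by the hybridization controls. Of all named genes 1.97% were at least 2-fold higher and 7.67% lower. In FGF signalling 4 of 21 genes were at least 2-fold lower and 0 higher, with a median of 0.00. They were the receptor Fgfr1 (−1.20) and the feedback inhibitors Spry1 (−1.78), Dusp6 (−1.55) and Spry4 (−1.39), whereas Fgfr2 differed by 0.27, Fgfr3 by 0.43 and the ligand Fgf18 by 0.15.

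WNT signalling had 2 of 36 genes higher and 2 lower, with a median of 0.04, and 1 higher and 7 lower after the shift by the hybridization controls. Wnt9a, a ligand that acts in joint formation in mouse, lay at 1.35 in PZ and −1.01 in MZ, with 1.31 in FZ, −1.09 in HZ and 0.00 in FCC. The transcription factor Tcf7 differed by 1.20. Wif1, a secreted inhibitor, differed by −1.36, Lrp4 by −1.20 and Frzb, another inhibitor, by −0.66, and the target Axin2 differed by 0.28. Of 13 genes of hedgehog and PTHrP signalling, Ihh was the 1 that was 2-fold lower and Hhip, which binds hedgehog ligands, the 1 that was 2-fold higher, at 1.24. The receptor Pth1r differed by −0.32 and the target Gli1 by 0.02. In the IGF system, Igfbp6 (1.27) and Irs1 (1.17) were 2 of 22 genes that were higher, 0 were lower (0 and 2 after that shift) and Igf1 and Igf2 differed by −0.48 and 0.30. Retinoic acid, made from vitamin A, is held in the cell by binding proteins, and both were higher in PZ. Crabp1 lay at 2.51 in PZ and 0.00 in MZ, with 4.89 in FZ, −2.56 in HZ and −2.32 in FCC. Crabp2 lay at 1.78 in PZ and 0.00 in MZ, and at 3.24 in FZ. Aldh1a2, which makes retinoic acid, and Rarres1, a gene induced by retinoids, differed the other way, by −1.31 and −2.66, and Cyp26b1, which breaks it down, by 0.00. They were 4 of 21 genes past 2-fold, and the median was 0.05.

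Outside these pathways, the transcription factor Bcl11b differed by 2.45, with probe sets at 3.83, 2.75 and 0.77. Its highest probe set lay at 3.83 in PZ and 0.00 in MZ, and at 4.31 in FZ. Meox2, a homeobox gene, differed by 1.74 and Meox1 by −1.18 in a list of 25 genes of mesenchymal progenitors and the superficial layer that had no other member past 2-fold and a median of −0.02. In that list Pdgfra differed by −0.47 and Prrx1 by 0.05. Matrix proteases and their inhibitors had 2 of 39 genes higher, Adamts15 (1.19) and Adamtsl4 (1.04), and 6 lower (median −0.09; 0 and 15 after the shift by the hybridization controls), led by Mmp12 (−2.75), the elastase of macrophages, which lay at −1.21 in PZ and 1.54 in MZ, with 0.00 in HZ. Mmp2, Mmp14 and Adamts5 differed by 0.32, 0.34 and 0.08. Cholesterol synthesis had 2 of 22 genes higher, Tm7sf2 (1.29) and Dhcr7 (1.08), 1 lower, Ebp (−1.16), and a median of 0.16, with 0 higher and 1 lower after the shift by the hybridization controls. Its FZ minus MZ median was 0.87. Of 34 genes of glycolysis and the response to low oxygen 2 were higher and 4 lower (median 0.10), and 0 and 8 after that shift. The enzyme Aldoa lay at −1.50 in PZ, −0.05 in MZ and 0.97 in FZ, and Ldha at −1.33 in PZ, 0.00 in MZ and 1.10 in FZ. Car9, a carbonic anhydrase induced by low oxygen, went the other way, with 0.04 in PZ and −1.39 in MZ, and with 1.71 in FZ and −4.77 in HZ. Immediate early genes had 1 of 26 lower, Zfp36 (−1.40), and a median of 0.04, with Fos at 0.71 and Jun at 0.92. Genes of the NF-kappaB and interferon responses had 6 of 37 lower and 0 higher (median −0.21), led by the immunoproteasome subunits Psmb9 (−2.02) and Psmb8 (−1.64).

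For some genes the answer depends on the probe set. Of 111 genes with several probe sets of which at least 1 differed by 4-fold, 70 had another probe set of the opposite sign or within 0.5 of 0. Among the widest was Fgl2, a fibrinogen-like protein, with 4 probe sets between −3.94 and 0.18. Ubl5, a ubiquitin-like protein, had −4.10, −0.84 and 0.06, and the first of these was the lowest value of any probe set. Aplp2, a relative of the amyloid precursor protein, had −3.14 in 1 probe set and −0.02 to 0.64 in the other 4. Sec31a, a coat protein of vesicles that leave the endoplasmic reticulum, had −2.07 in PZ minus MZ at one probe set and 1.18 at the other. In Ubl5, Aplp2 and Sec31a the low probe sets were low in PZ and not in FZ, which differed from MZ in them by 0.05, −0.15 and 0.17.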

How the data were processed

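The authors hybridized 5 Affymetrix rat genome arrays, 1 per group, and the value table they deposited holds 1 log2 value per probe set and array. MAS5 and RMA are the tools listed in the submitters' processing notes, without versions, and no genome build is named in the sources used here. In the table the median over the 5 arrays was 0 for all 31099 probe sets, so each deposited log2 value is relative to that median. Nothing was normalized again. Of the 31042 non-control probe sets, 20826 carried 1 gene symbol in the platform annotation, 436 several and 9780 were not listed, which gave 14217 genes, each with the mean of its probe sets.

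Differences were taken as PZ minus MZ in Python 3.11.15 (numpy 2.4.6, pandas 2.3.3), with a threshold of 2 on the log2 scale (4-fold) for probe sets and of 1 (2-fold) for members of 41 gene lists. The members of the comparison, the lists and the genes were chosen with earlier results of these data known. Genes were named by rule: the 20 with the largest difference in each direction, defining members of each list and up to 4 others in each direction, up to 10 in each direction with PZ apart from both neighbours, genes named by the study for these arrays, and the 10 with the widest spread between probe sets. Genes at the threshold and Rgs18 fall outside the rule and were picked by their values. The counting was checked on simulated data. The alternatives were other scalings, thresholds, probe set rules and FZ in the place of PZ. The number of arrays, 1 per zone, limits the precision. Promoter letters are from RefSeq (GRCr8).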

Additional observations from a re-analysis of the deposited data

How the results depend on the processing

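No paired analysis was possible because each zone is 1 array and the labels carry no replicate numbers. Against 98 probe sets at least 4-fold higher in PZ and 247 lower, the thresholds of 1, 1.4 and 3 on the log2 scale gave 792 and 2072, 292 and 898, and 17 and 25, and genes in place of probe sets 51 and 128. Shifting by all hybridization controls gave 37 and 656, by bioB alone 28 and 1105, by bioC 32 and 866 and by bioD 55 and 478. The shift for all controls also moved FZ against PZ to 598 higher and 18 lower, and by construction takes a constant from every difference. With FZ in place of PZ the counts were 192 and 73. The shifts by single controls, the shift of FZ against PZ and these last counts were alternatives chosen after seeing the data. Of the lower probe sets 108 were at least 2-fold lower in FZ than in HZ, 205 at any size and 25 by at least 4-fold. Relative to all genes, the list medians with FZ in place of PZ were −1.31 for hyaline matrix, 1.08 for tendon, −0.055 for DNA replication, 0.66 for small proteoglycans, 0.88 for cholesterol synthesis, −0.026 for oxidative phosphorylation, 0.69 for glycolysis, −0.000244 for ribosomal proteins, 0.14 for the proteasome, 0.13 for cytosolic chaperones, −0.41 for neutrophils, −0.50 for macrophages, −0.86 for pan-leukocyte genes, −0.41 for bone cells and −0.041 for reference genes. With the mean of FZ and PZ they were −0.82 for hyaline matrix, 0.94 for tendon, 0.53 for cholesterol synthesis, −0.39 for oxidative phosphorylation, −0.15 for the proteasome, −0.68 for neutrophils, −0.72 for bone cells and −0.48 for reference genes. The cause of these differences was not tested. All 41 list medians, relative to all genes, stayed within 0.31 of their value with the probe set of largest difference. Median centring and the control shift take a constant from every gene, so on that relative scale they change no list median by construction. Taken alone, the control shift lowers each list median by 0.46. Taking the highest probe set in place of the mean turned the sign of Ckap4 (0.31), Fgl2 (0.18), Ptprc (0.045) and Ubl5 (0.065), and moved 63 others of 124 named genes by more than 0.31, as the lowest one did for 65. The shift by cre alone, and leaving out probe sets of shared or mixed targets, kept both counts within 1.5 times. No setting replaces the missing replicate arrays, and without levels a dim probe set cannot be told from a bright one.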
